A study of Bos taurus with 12 samples.

Results

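The 10 enzyme genes described here write or erase chromatin marks, and they were followed in cattle embryos from blastocyst to early conceptus: the DNA methyltransferase genes DNMT1, DNMT3A and DNMT3B, the histone deacetylase genes HDAC1, HDAC2 and HDAC3, the histone acetyltransferase genes KAT2A and KAT2B, and the histone methyltransferase genes EHMT2 and EZH2. They were found on the array by gene symbol. Of the 24016 probe sets tested, 17 carried 1 of these symbols and no other, and they covered 9 of the 10 genes. KAT2A had no probe set under its own symbol and is not analysed here. RNA came from 12 pools on Affymetrix bovine arrays, 3 in each of 4 groups: Day 13 in vitro, Day 13 in vivo, Day 7 in vitro and Day 7 in vivo. The Day 7 groups were pools of 25 blastocysts, produced by in vitro fertilisation or in superovulated animals. The Day 13 groups were pools of 5 conceptuses recovered from synchronized heifers, each of which had received 10 blastocysts, so that the embryos of both Day 13 groups had developed in a recipient uterus since Day 7. The labels do not say which conceptuses shared a recipient.

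DNMT1 copies existing DNA methylation onto new strands after replication, while DNMT3A and DNMT3B place methyl groups on unmethylated sites. HDAC1 and HDAC2 remove acetyl groups from histones within the SIN3, NuRD and CoREST complexes, and HDAC3 does so within the NCOR complexes. KAT2A and KAT2B are alternative catalytic subunits of the SAGA and ATAC acetyltransferase complexes. EHMT2 and EZH2 place repressive methyl marks on histone H3, EZH2 as the catalytic subunit of Polycomb complex PRC2. In mammals DNA methylation falls in the early embryo and is later regained, and its level in these embryos was not measured.

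All values are the deposited log2 probe set intensities, on which a difference of 1 is a doubling. Background was set at 3.39 from control probe sets with no target in the sample. Replicate arrays had correlations of 0.963 to 0.991 over probe sets, which do not count as replicates. The poly-A spike-ins, foreign transcripts added before labelling, averaged 9.27, 10.5 and 13.0 in Day 13 in vitro replicates 1, 2 and 3, and lay between 13.3 and 14.96 on the other 9 arrays. Day 13 in vitro replicates 1 and 2 stood apart in this. Their hybridization controls averaged 10.4 and 10.8, against 11.8 to 13.3 on the other arrays. Results that rest on Day 13 in vitro replicates 1 and 2 are given with and without them. Of the trophoblast markers 12 of 16 had a probe set, and all 12 exceeded background on at least 3 arrays. Their summed level was 122.7 to 132.6 (Day 13 in vitro), 107.6 to 112.7 (Day 13 in vivo), 80.6 to 88.9 (Day 7 in vitro) and 85.3 to 89.97 (Day 7 in vivo). Of 6 epiblast markers 2 were measured, POU5F1 and SOX2, the second above background on 2 arrays. They summed to 6.87 to 7.66 (Day 13 in vitro), 9.08 to 11.8 (Day 13 in vivo), 12.3 to 15.9 (Day 7 in vitro) and 11.1 to 13.8 (Day 7 in vivo). The 7 of 8 hypoblast markers measured summed to 56.96 to 64.1 (Day 13 in vitro), 70.9 to 74.6 (Day 13 in vivo), 60.998 to 61.4 (Day 7 in vitro) and 59.03 to 61.7 (Day 7 in vivo), with GATA4 above background on 1 array. Of 7 endometrial markers 6 were measured, of which 5 were at background on every array and MUC1 exceeded it on 1. All 6 cumulus and granulosa markers were measured, and 5 were at background on every array, HSD3B1 being the other. Of 6 blood cell markers 5 were measured and 4 were at background on every array. The exception was the globin gene HBB, and the 5 summed to 11.8 on each Day 13 in vitro array, 11.2 to 12.3 (Day 13 in vivo), 14.015 to 17.4 (Day 7 in vitro) and 15.6 to 16.7 (Day 7 in vivo). Markers of 1 list did not all move together. In embryos made in vivo, the hypoblast genes GATA6, PDGFRA and FN1 averaged lower at Day 13 than at Day 7, and APOA1, APOA2 and LAMB1 higher. The trophoblast genes TFAP2A, PTGS2, IFNT2 and PAG2 averaged lower there, and the other trophoblast markers higher. In such bulk samples fewer cells of a type and less RNA per cell cannot be told apart. The part of any change in the mix of cell types in the results below was not tested.

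Of the 9 measured genes 7 exceeded background on at least 3 arrays: DNMT1, DNMT3A, DNMT3B, HDAC1, HDAC3, KAT2B and EZH2. HDAC2 and EHMT2 did not. The probe set of EHMT2 read 2.23 to 2.59 on the 12 arrays. The brightest of 3 probe sets for HDAC2 held 1 value, 2.60, on 9 arrays and ran from 2.25 to 2.69 in all. No comparison is drawn for either gene, because all groups lay below background. The signal of DNMT3B was only just above it. Its brighter probe set read 3.95, identical to within 0.001, on 8 of 12 arrays, and 3.76 to 4.18 on the other 4. A value repeated on 8 or more arrays was found in 3.19% of the 10591 probe sets above background. HDAC3 repeated a value of 4.86 on 4 arrays.

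**Figure D1:**
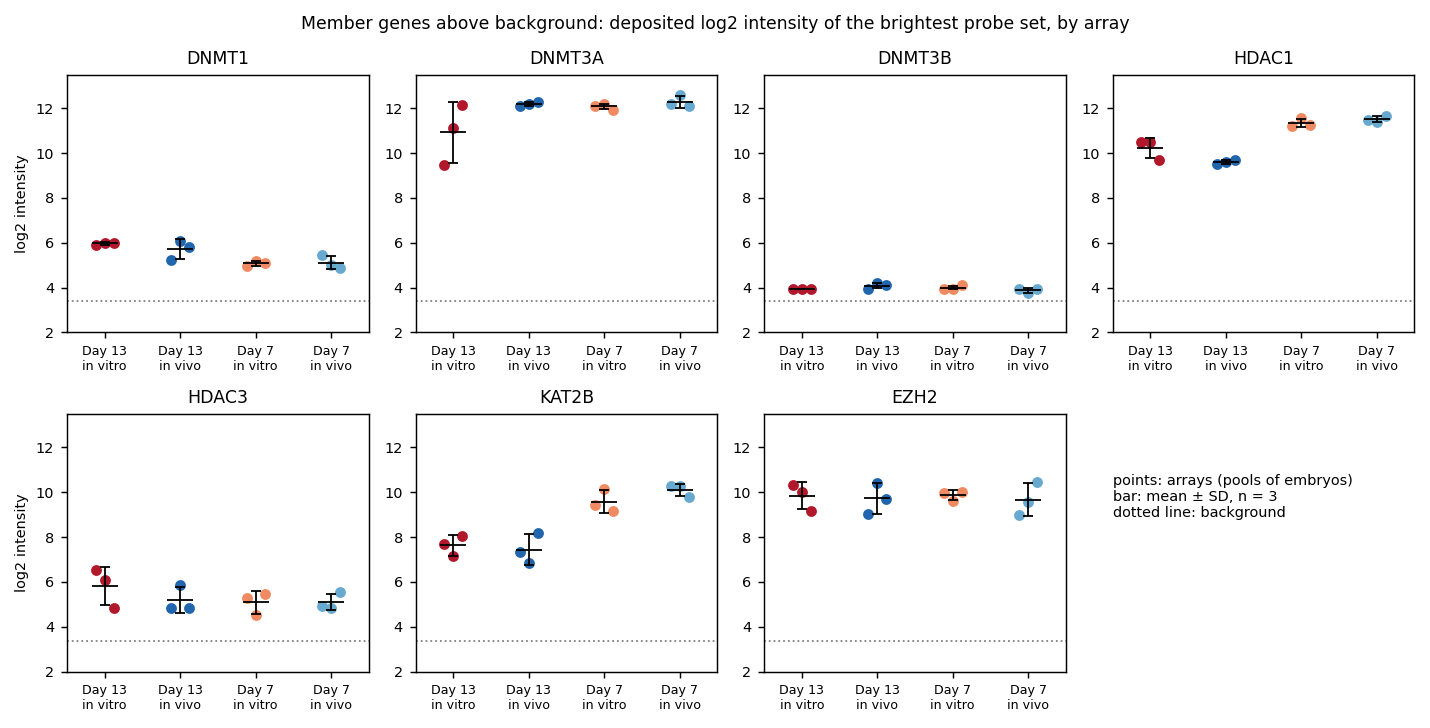
Deposited log2 intensity (y axis) of the brightest probe set of the 7 genes above background in each group (x axis). Points are arrays, bars the mean ± SD (n = 3), and the dotted line is background. HDAC1 and KAT2B lie lower in both Day 13 groups than in both Day 7 groups, with no overlap, and DNMT3A is spread from 9.47 to 12.16 in Day 13 in vitro arrays.

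Probe sets of the same gene disagreed in level. Of the 17, 8 exceeded background on at least 3 arrays, 7 stayed at background on all arrays and the other 2 exceeded it on 1 array each. KAT2B had 4 probe sets. The brightest ran from 6.83 to 10.27, while the second stayed between 2.72 and 2.93, the third rose above background on 1 array, at 3.70 in Day 7 in vitro replicate 3, and the fourth lay at the floor of 2.23 on all arrays. Every statement on KAT2B thus rests on 1 of its 4 probe sets. For HDAC2, the second probe set reached 4.07 in Day 13 in vivo replicate 2 and was at or near the floor on all other arrays. DNMT3A had a pair of probe sets above background. The brighter ran from 9.47 to 12.60 and the dimmer, whose name on the array marks it as matching more than 1 transcript of the gene, ran from 6.26 to 9.14. The gap between them was not constant: it ran from 3.05 in Day 13 in vivo replicate 2 to 5.34 in Day 13 in vivo replicate 1. The third DNMT3A probe set was at the floor throughout, as was the second of DNMT3B.

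**Figure D2:**
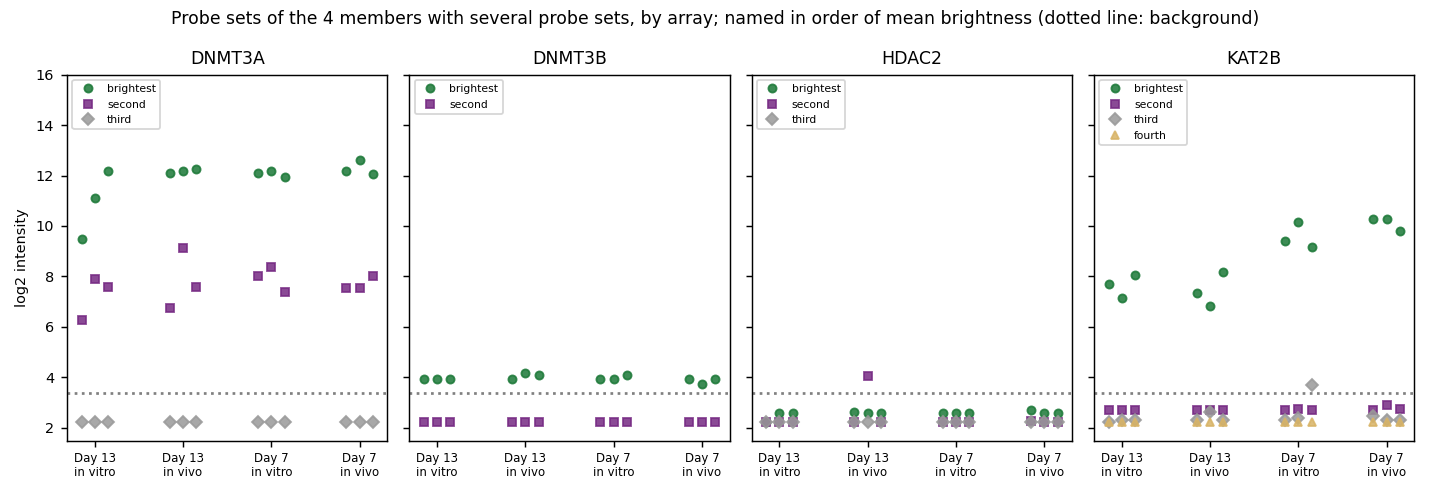
Log2 intensity (y axis) of each probe set of the 4 genes that have several, by group (x axis, 3 arrays each). The dotted line is background, and for KAT2B and DNMT3B only 1 probe set stays above it.

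The first comparison asks how these enzyme genes changed between blastocyst and Day 13 conceptus in embryos made in vivo. HDAC1 and KAT2B fell, and no member passed as higher. That is 2 of 9 genes by the brightest probe set, at an adjusted p below 0.05 over all 24016 probe sets in limma. Of all probe sets 3.79% passed, 1.7% higher and 2.09% lower, and 8.23% of those above background did. The groups did not overlap for 2 of the 7 genes above background, HDAC1 and KAT2B, beside 30.6% of all probe sets above background. The median difference was 0.06 over these 7 genes and -0.02 over all probe sets above background.

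HDAC1 read 9.50, 9.62 and 9.69 in Day 13 in vivo replicates 1, 2 and 3, against 11.48, 11.38 and 11.66 in Day 7 in vivo replicates 1, 2 and 3. The highest Day 13 array lay 1.69 below the lowest Day 7 array. The deacetylase gene was 3.75-fold lower at Day 13, a log2 difference of -1.91 ± 0.21 (SE, adjusted p = 0.00183 in limma). The call held under all 16 alternative settings, with an adjusted p between 0.000296 and 0.0113. Fitting only the 6 arrays concerned was among them.

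KAT2B read 7.33, 6.83 and 8.18 in Day 13 in vivo arrays, against 10.27, 10.26 and 9.80 in Day 7 in vivo arrays. The Day 13 arrays were more spread than the Day 7 arrays, but the highest of them lay 1.62 below the lowest of Day 7. The acetyltransferase gene was 6.34-fold lower, a difference of -2.66 ± 0.40 (adjusted p = 0.00889). The GAPDH 3' minus 5' difference reflects labelling along a transcript and RNA integrity. It averaged 4.01 ± 1.01 across the Day 13 arrays and 5.61 ± 0.04 across the Day 7 arrays of this origin (SD, n = 3). With it as a covariate KAT2B differed by -1.83 (adjusted p = 0.0741), and fitting only these 6 arrays gave an adjusted p of 0.103.

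DNMT1 read 5.23, 6.08 and 5.82 in Day 13 in vivo arrays, against 5.43, 5.03 and 4.89 in Day 7 in vivo arrays. The groups overlapped through Day 13 replicate 1, and the difference of 0.59 ± 0.21 did not pass (adjusted p = 0.234). Without that array it was 0.83 and passed (adjusted p = 0.0386). DNMT3A averaged 12.18 ± 0.08 by its brightest probe set in the Day 13 conceptuses and 12.29 ± 0.27 in the Day 7 blastocysts (SD, n = 3), with a 95% interval of the difference from -1.38 to 1.17. The dimmer DNMT3A probe set differed by 0.11 ± 0.64. DNMT3B differed by 0.19 ± 0.07 (adjusted p = 0.263), with 3 of the 6 arrays at its repeated value of 3.95.

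HDAC3 read 4.86, 5.88 and 4.86 in Day 13 in vivo arrays, against 4.93, 4.86 and 5.53 in Day 7 in vivo arrays, a difference of 0.09 with a 95% interval from -1.02 to 1.21. EZH2 read 9.04, 10.43 and 9.72 in Day 13 in vivo arrays, against 8.99, 9.55 and 10.45 in Day 7 in vivo arrays, a difference of 0.06 with an interval from -1.03 to 1.16. Both genes varied more within a group than between the groups. These intervals leave room for a doubling or a halving of either gene, so a change of that size is not excluded with 3 arrays a group.

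The same comparison for embryos made in vitro placed 3 of 9 genes past the threshold. HDAC1 and KAT2B fell, as they had in the other origin, and DNMT1 rose. The arrays of each origin are separate, but the tests share an estimate of spread over all 12 arrays. Of all probe sets 7.51% passed, 3.55% higher and 3.96% lower, and 16.6% of those above background did. The groups did not overlap for 3 of the 7 genes above background, again HDAC1, KAT2B and DNMT1, beside 44.4% of all such probe sets. The median difference was -0.05 over the 7 genes and -0.02 over all probe sets above background.

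HDAC1 read 10.48, 10.51 and 9.71 in Day 13 in vitro replicates 1, 2 and 3, against 11.21, 11.54 and 11.24 in Day 7 in vitro replicates 1, 2 and 3. Replicate 3 was the lowest Day 13 in vitro array and lay beside the Day 13 in vivo arrays. The gene was 2.14-fold lower, a difference of -1.10 ± 0.21 (adjusted p = 0.0159). The call held without any single array of the 6 (adjusted p between 0.00377 and 0.0489). With Day 13 in vitro replicates 1 and 2 left out, replicate 3 alone differed from Day 7 by -1.62 and the call held (adjusted p = 0.00232, the lone array taken to vary like the other groups). Centred on ribosomal protein genes the difference was -0.95 (adjusted p = 0.0704), and with only the 6 arrays fitted the adjusted p was 0.151.

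KAT2B read 7.71, 7.15 and 8.07 in Day 13 in vitro arrays, against 9.42, 10.17 and 9.17 in Day 7 in vitro arrays. The groups stayed apart by 1.10. It was 3.84-fold lower, a difference of -1.94 ± 0.40 (adjusted p = 0.0232). The call ended in 9 of 17 alternatives, among them the omission of Day 13 replicate 1 (adjusted p = 0.0755) or 2 (adjusted p = 0.0899) and of Day 7 replicate 1 (adjusted p = 0.0688) or 2 (adjusted p = 0.0634). The difference stayed between -2.16 and -1.51 in all 17, and it was -1.51 with Day 13 in vitro replicates 1 and 2 both left out (adjusted p = 0.382).

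DNMT1 read 5.90, 5.998 and 6.005 in Day 13 in vitro arrays, against 4.95, 5.20 and 5.09 in Day 7 in vitro arrays. Both groups were tight, and the lowest Day 13 array lay 0.70 above the highest Day 7 array. The methyltransferase gene was 1.85-fold higher, a difference of 0.89 ± 0.21 (adjusted p = 0.0419). The call stood near the threshold. It ended with the poly-A spike-in mean or the GAPDH 3' minus 5' difference as a covariate, and with replicate number as a block. Leaving out any 1 of the 6 arrays moved the adjusted p to between 0.0731 and 0.147, while the difference stayed between 0.82 and 0.95. With Day 13 in vitro replicates 1 and 2 both left out it was 0.93 (adjusted p = 0.358).

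**Figure D3:**
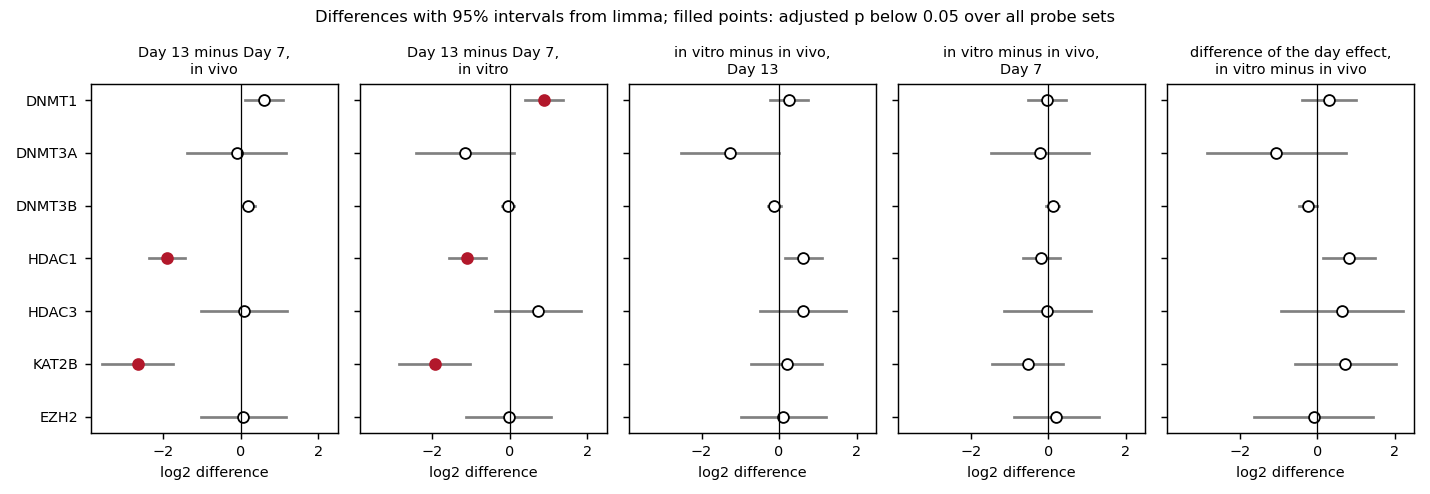
Log2 differences (x axis) of the 7 genes above background in the 5 comparisons, with 95% intervals from limma. Filled points passed an adjusted p of 0.05 over all probe sets: HDAC1 and KAT2B in both day comparisons and DNMT1 in embryos made in vitro.

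DNMT3A had the widest spread inside a group of the 7 brightest probe sets, an SD of 1.36 in Day 13 in vitro arrays. It read 9.47, 11.12 and 12.16 in Day 13 in vitro replicates 1, 2 and 3, against 12.11, 12.18 and 11.93 in Day 7 in vitro arrays. Replicate 3 lay among the Day 7 arrays and replicate 1 was 2.47 below the lowest of them. The difference of -1.16 ± 0.56 did not pass (adjusted p = 0.321). When replicate 3 was left out it was -1.78 and did (adjusted p = 0.0332), and without replicates 1 and 2 it was 0.09 (adjusted p of 1). With the poly-A mean as a covariate it was 0.51 (adjusted p of 1). The order of the 3 arrays was that of their poly-A spike-ins, 9.27, 10.5 and 13.0, and the part of labelling in it was not tested. The dimmer probe set read 6.26, 7.90 and 7.59 on these arrays, so that replicate 1 alone lay below the Day 7 in vitro values of 8.02, 8.38 and 7.39.

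HDAC3 read 6.53, 6.08 and 4.86 in Day 13 in vitro arrays, against 5.29, 4.52 and 5.46 in Day 7 in vitro arrays, a difference of 0.73 with a 95% interval from -0.38 to 1.85. EZH2 read 10.33, 10.03 and 9.16 in Day 13 in vitro arrays, against 9.98, 9.61 and 10.03 in Day 7 in vitro arrays, a difference of -0.03 with an interval from -1.13 to 1.06. DNMT3B held 3.95 on all 3 Day 13 in vitro arrays and differed from Day 7 by -0.05. In HDAC3 and EZH2, as in HDAC1, replicate 3 was the lowest of the 3 Day 13 in vitro arrays.

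**Figure D4:**
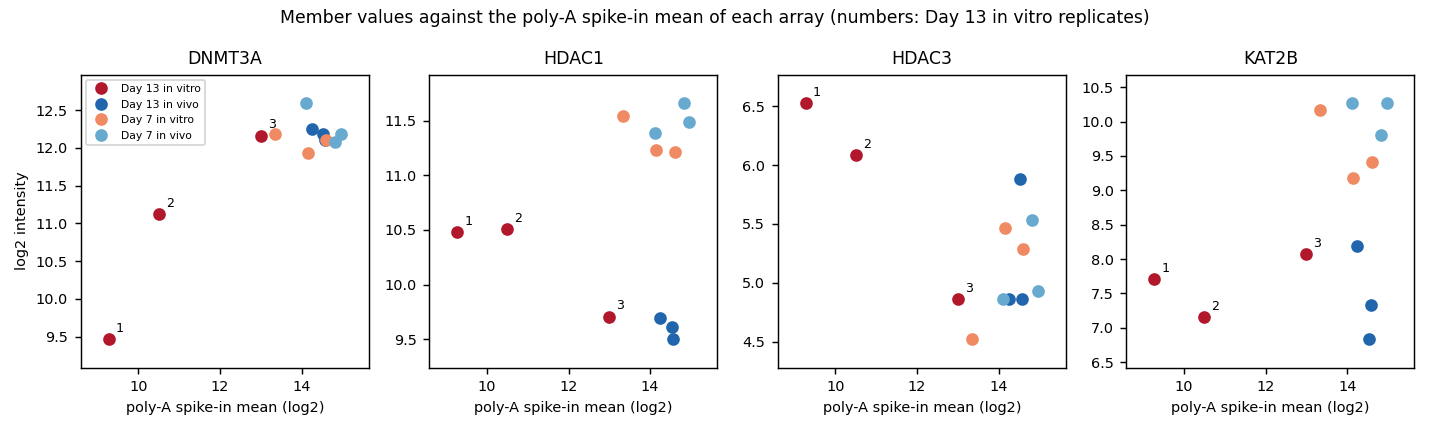
Log2 intensity (y axis) of 4 of the genes against the mean of the poly-A spike-ins on the same array (x axis, log2). In the Day 13 in vitro arrays, numbered by replicate, the array with the most spike-in signal, replicate 3, lay among the other groups for DNMT3A and beside the Day 13 in vivo arrays for HDAC1.

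The next comparison sets blastocysts made in vitro against those made in vivo, at Day 7 and before any transfer. None of the 9 genes passed in limma, where 0.208% of all probe sets did, and at an unadjusted p below 0.05 the count was also 0. The GAPDH 3' minus 5' difference averaged 3.69 ± 0.43 across the Day 7 in vitro and 5.61 ± 0.04 across the Day 7 in vivo arrays (SD, n = 3). With it as a covariate no member passed either. The groups overlapped for all 7 genes above background, beside 18.6% of such probe sets without overlap. The lowest difference was that of KAT2B, which read 9.42, 10.17 and 9.17 in Day 7 in vitro arrays, against 10.27, 10.26 and 9.80 in Day 7 in vivo arrays. That is -0.53 with a 95% interval from -1.45 to 0.39. HDAC1 differed by -0.18 with an interval from -0.65 to 0.29, and DNMT1 by -0.04 with an interval from -0.53 to 0.45. For HDAC1 and DNMT1 these intervals exclude a doubling and a halving. For DNMT3A, from -1.48 to 1.06, and HDAC3, from -1.13 to 1.10, they include both, and for EZH2, from -0.89 to 1.30, they include a doubling.

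Between the origins at Day 13 none of the 9 genes passed either, where 1.2% of all probe sets did, and 1 had an unadjusted p below 0.05. That gene was HDAC1, at 10.48, 10.51 and 9.71 in Day 13 in vitro arrays, against 9.50, 9.62 and 9.69 in Day 13 in vivo arrays. The groups did not overlap, beside 29.8% of probe sets above background, but replicate 3 of Day 13 in vitro exceeded the highest in vivo array by only 0.016. The difference was 0.63 ± 0.21 (adjusted p = 0.195). When that array was left out, which took the share of all probe sets called to 8.57%, it was 0.89 (adjusted p = 0.00409), and without replicates 1 and 2 it was 0.11 (adjusted p of 1). With the poly-A spike-in mean as a covariate it was -0.11 (adjusted p of 1).

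DNMT3A differed by -1.27 between the origins at Day 13, with an interval from -2.54 to 0.01 (adjusted p = 0.315). It was -1.89 without Day 13 in vitro replicate 3 (adjusted p = 0.0349) and -0.02 without replicates 1 and 2 (adjusted p of 1). The dimmer DNMT3A probe set differed by -0.57 ± 0.64. DNMT1 differed by 0.26, HDAC3 by 0.62, KAT2B by 0.197 and EZH2 by 0.11, all with intervals that span 0. The groups overlapped for each of these 4 genes.

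A direct test asked whether Day 13 minus Day 7 was of the same size in both origins. No member passed in limma, where 0.4% of all probe sets did, and 2 had an unadjusted p below 0.05, HDAC1 and DNMT3B. The fall of HDAC1 was smaller in embryos made in vitro by 0.81 ± 0.29 (adjusted p = 0.379). This was 1.07 without Day 13 in vitro replicate 3 (adjusted p = 0.0112), and without replicates 1 and 2 it was 0.28 (adjusted p of 1). DNMT3B gave -0.24 ± 0.10 (adjusted p = 0.485), KAT2B 0.72 ± 0.57, DNMT1 0.30 ± 0.30 and DNMT3A -1.06 ± 0.79. A call for DNMT1 in embryos made in vitro and none in those made in vivo is therefore not a shown difference between the origins.

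Other genes of these pathways were taken from 4 lists of 112 genes, of which 67 had a probe set and 57 exceeded background on at least 3 arrays. In embryos made in vivo 1 was higher and 6 were lower at Day 13, all among the 57, of which they are 12.3%, beside 8.32% of all named genes above background by their brightest probe sets. In embryos made in vitro 3 were higher and 7 lower, again all among the 57, or 17.5%, beside 16.8% of all named genes above background, a share near that of the lists. MTA3 and KAT7 were lower in both, which is 2 of the 7 calls in one origin and 2 of the 10 in the other.

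Among the deacetylase partners, 26 of 37 measured, MTA3 was lower in both origins, as HDAC1 was. It encodes a subunit of the NuRD complex, in which HDAC1 acts. Other subunit genes of that complex were not called lower. CHD4 had the same sign as MTA3, at -0.36 in vivo and -0.80 in vitro. Its in vitro interval ran from -1.485 to -0.105 (adjusted p = 0.183 in limma), so a fall of CHD4 there is not excluded. RBBP7 differed by 0.08 in vivo and 0.39 in vitro. MTA2 differed by 0.21 and 0.28 and MBD3 by 0.14 and 0.15, and none of these genes passed. RBBP4, given below, was higher in vitro. MTA3 read 9.50, 10.00 and 9.51 in Day 13 in vivo arrays, against 11.46, 11.82 and 11.99 in Day 7 in vivo arrays, so that it fell by 2.09 ± 0.18 on the log2 scale (adjusted p = 0.000539). In embryos made in vitro MTA3 fell by 2.17 ± 0.18 (adjusted p = 0.000329), to 9.14, 9.55 and 9.32 in Day 13 in vitro arrays, against 11.55, 11.38 and 11.58 in Day 7 in vitro arrays. Its brightest probe set held both calls under every alternative, while its other one differed by -1.49 in vivo and -0.21 in vitro and did not pass.

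SIRT7, a nucleolar deacetylase gene, fell by 1.32 ± 0.19 in embryos made in vivo (adjusted p = 0.00667) and kept the call without any single array, though not when only the 6 arrays were fitted (adjusted p = 0.0644), and its other probe set did not pass (adjusted p of 1). In embryos made in vitro SIRT5, a mitochondrial deacylase gene, fell by 1.28 ± 0.21 (adjusted p = 0.00863) and TBL1X, of the NCOR complex, fell by 1.61 ± 0.39 by 1 of its 3 probe sets (adjusted p = 0.0437). BRMS1, named to complete the count, fell by 1.80 ± 0.45 (adjusted p = 0.0476), but did not pass in 5 of 6 omissions of single arrays (adjusted p 0.0898 to 0.161), nor, at -1.97, with Day 13 in vitro replicates 1 and 2 both out (adjusted p = 0.339). RBBP4, a histone-binding subunit shared by the HDAC1 complexes and PRC2, rose by 1.94 ± 0.47 (adjusted p = 0.0441). Its Day 13 in vitro arrays read 13.18, 13.06 and 11.26, against 10.66, 10.63 and 10.39 in Day 7 in vitro arrays, so that replicate 3 was the lowest of Day 13.

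TBL1X did not pass when replicate 1 or 2 of Day 13, or replicate 1 or 3 of Day 7, was omitted (adjusted p 0.134 to 0.155). RBBP4 passed in 1 of the 6 such omissions, that of Day 13 replicate 3, and not in the other 5 (adjusted p 0.0927 to 0.155). With both Day 13 in vitro replicates 1 and 2 out, SIRT5 differed by -1.33 (adjusted p = 0.099), TBL1X by -0.999 (adjusted p = 0.661) and RBBP4 by 0.70 (adjusted p = 0.557). The list had 0 higher and 2 lower in vivo with a median of -0.12 above background, and 1 higher and 4 lower in vitro with a median of -0.48, beside -0.02 over all probe sets above background in each. SIRT5 was the 1 gene of the lists that differed between the origins at Day 7, by 1.48 ± 0.21 (adjusted p = 0.0412), with 8.90, 8.14 and 8.07 in blastocysts made in vitro, against 6.75, 6.92 and 7.01 in those made in vivo. This call and the in vitro fall of SIRT5 share the 3 Day 7 in vitro arrays, which averaged 8.37. The means were 6.89 (Day 7 in vivo), 7.03 (Day 13 in vivo) and 7.09 (Day 13 in vitro). With day in vivo SIRT5 differed by 0.14 and did not pass (adjusted p = 0.957 in limma). The SIRT5 call at Day 7 ended in 8 of 16 alternatives. Among them were the omission of any 1 of the 3 Day 7 in vivo arrays (adjusted p 0.0624 to 0.0936) and the GAPDH 3' minus 5' difference as a covariate.

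Of the other acetyltransferase genes and SAGA subunits 21 of 31 were measured. KAT7, the catalytic subunit of another acetyltransferase complex, fell by 1.88 ± 0.20 in embryos made in vivo (adjusted p = 0.00183), under every alternative. In those made in vitro KAT7 fell by 1.06 ± 0.20 (adjusted p = 0.0172), which did not pass when Day 13 replicate 2 or Day 7 replicate 1 was omitted (adjusted p 0.0696 to 0.0718), nor, at -1.30, with Day 13 in vitro replicates 1 and 2 both out (adjusted p = 0.055). In embryos made in vivo the nuclear receptor coactivator gene NCOA1 fell by 2.56 ± 0.56 (adjusted p = 0.0467). There SUPT20H, of SAGA, fell by 1.89 ± 0.40 (adjusted p = 0.0384). Omitting single arrays ended the NCOA1 call in 5 of 6 cases, all but Day 13 replicate 1 (adjusted p 0.0978 to 0.143), and the SUPT20H call in 5 of 6, all but Day 13 replicate 3 (adjusted p 0.0624 to 0.122). Other NCOA1 probe sets differed by -4.32, -2.62 and -0.53, of which the first and second passed. The brightest NCOA1 probe set in the other origin, in vitro, differed by -2.12 and did not pass (adjusted p = 0.0617), while 2 of the other 3 passed, at -2.90 (adjusted p = 0.00863) and -2.14 (adjusted p = 0.0231). In vitro the SAGA subunit gene SGF29 fell by 0.99 ± 0.17 (adjusted p = 0.0117), with -1.22 and an adjusted p of 0.0595 when Day 13 in vitro replicates 1 and 2 were both out.

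HAT1, which acetylates newly made histone H4, rose in embryos made in vitro. It read 12.88, 12.77 and 12.68 in Day 13 in vitro arrays, against 11.07, 11.61 and 11.31 in Day 7 in vitro arrays, a rise of 1.45 ± 0.16 (adjusted p = 0.00131). The rise passed without any single array and, at 1.35, with Day 13 in vitro replicates 1 and 2 both out (adjusted p = 0.0407), but not with the poly-A covariate (adjusted p = 0.0779). HAT1 was also higher by 1.13 ± 0.16 in Day 13 in vitro than in Day 13 in vivo arrays (adjusted p = 0.0167), which read 11.84, 11.43 and 11.67. It did not pass when Day 13 in vitro replicate 1 or 2 was omitted (adjusted p 0.06 to 0.0746), nor, at 1.04, when both were (adjusted p = 0.187). The difference of its Day 13 minus Day 7 change between the origins was 1.21 ± 0.22 and did not pass (adjusted p = 0.0779). The list had 0 higher and 3 lower in vivo with a median of -0.32 above background, and 1 higher and 2 lower in vitro with a median of -0.83.

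Among the partners of DNA methylation 7 of 17 were measured, with 1 higher and 0 lower in each origin. UHRF1, which brings DNMT1 to newly replicated DNA, read 5.27, 5.31 and 6.06 in Day 13 in vivo arrays, against 4.39, 3.26 and 3.66 in Day 7 in vivo arrays, a rise of 1.78 ± 0.35 (adjusted p = 0.0268). Day 7 in vivo replicate 2 lay below the background of 3.39 and replicate 3 just above it, so the size of the rise is uncertain. Omitting Day 13 replicate 3 or Day 7 replicate 2 or 3 ended the call (adjusted p 0.0749 to 0.0809). So did the GAPDH 3' minus 5' covariate, centring on ribosomal protein genes and fitting only the 6 arrays. The other UHRF1 probe set differed by 0.81 and did not pass. In embryos made in vitro UHRF1 differed by 0.79 ± 0.35 (adjusted p = 0.264). TDG, a glycosylase that excises oxidised methylcytosine, rose by 3.08 ± 0.67 in vitro (adjusted p = 0.0291), with 12.17, 11.31 and 9.76 in Day 13 in vitro arrays, against 8.20, 8.55 and 7.25 in Day 7 in vitro arrays. TDG did not pass when replicate 1 or 2 of Day 13, or replicate 1 or 3 of Day 7, was omitted (adjusted p 0.0845 to 0.108), and with both Day 13 replicates 1 and 2 out it differed by 1.76 (adjusted p = 0.488). UHRF2 was higher by 1.80 ± 0.32 in Day 13 in vitro than in Day 13 in vivo arrays (adjusted p = 0.0406), but not in 5 of 6 omissions of single arrays (adjusted p 0.0657 to 0.156), nor, at 1.29, with Day 13 in vitro replicates 1 and 2 both out (adjusted p = 0.506).

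Of the other genes of histone H3 methylation 13 of 27 were measured, with 0 higher and 1 lower in each origin. KDM3A, a demethylase that removes the mark EHMT2 places, fell by 2.28 ± 0.46 in vivo (adjusted p = 0.0304), but not in 5 of 6 omissions of single arrays (adjusted p 0.0514 to 0.0988). The other KDM3A probe set differed by -0.50 ± 0.90 (adjusted p of 1), and the mean of both by -1.39 (adjusted p = 0.287). EHMT1, the partner of EHMT2, fell by 1.28 ± 0.28 in vitro by 1 of its 4 probe sets (adjusted p = 0.0306), but not in 5 of 6 omissions of single arrays (adjusted p 0.0621 to 0.116), nor, at -0.83, with Day 13 in vitro replicates 1 and 2 both out (adjusted p = 0.559). In the other origin, in vivo, the same EHMT1 probe set differed by -1.08 and did not pass (adjusted p = 0.0929 in limma). The brightest KDM3A probe set differed by -1.64 in vitro and did not pass (adjusted p = 0.0723). Neither change with day differed between the origins in limma (adjusted p = 0.96 for EHMT1 and 0.733 for KDM3A). EED, the PRC2 subunit that binds EZH2, differed by 0.74 ± 0.45 in vivo and by 0.94 ± 0.45 in vitro and did not pass. EED is named after its values were seen.

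**Figure D5:**
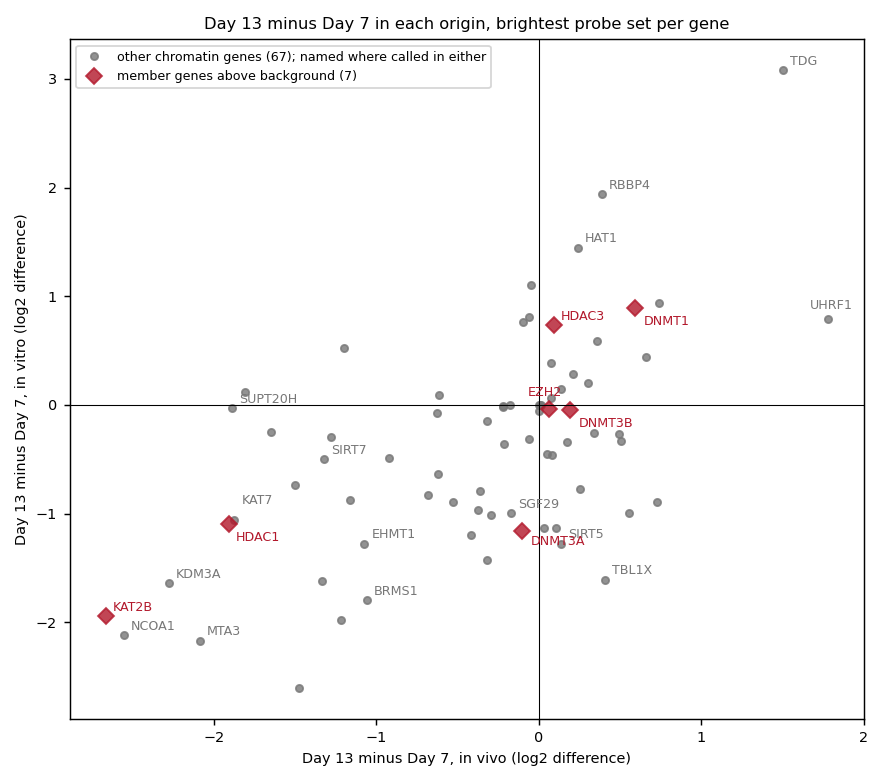
Day 13 minus Day 7 log2 difference in embryos made in vivo (x axis) and in vitro (y axis) for the 7 genes above background and 67 other chromatin genes, each by its brightest probe set. HDAC1, KAT2B, MTA3 and KAT7 lie in the lower left, called lower in both origins. The comparisons share no array, but their tests share an estimate of spread over all 12 arrays. With only the 6 arrays of each comparison fitted, MTA3 was called in both origins, HDAC1 and KAT7 in vivo only and KAT2B in neither.

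KAT2B had the widest range of group means among the 7 genes, 2.66. Among 5796 other named genes above background, the profiles nearest to it over the 12 arrays, after each gene's own mean was subtracted, were those of NRBP2, MTRES1 and BAZ2A, with root mean square differences of 0.29, 0.31 and 0.37 on the log2 scale. The level of NRBP2 averaged 7.53 (Day 13 in vitro), 7.43 (Day 13 in vivo), 9.82 (Day 7 in vitro) and 10.12 (Day 7 in vivo).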

How the data were processed

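RNA of 12 embryo pools was measured on Affymetrix bovine arrays after amplification and biotin labelling of 75 ng of total RNA, per the labels. The authors deposited 1 log2 intensity per probe set and array, already normalized between arrays. Per the submitters' processing notes RMA, GCRMA and limma were used. Whether RMA or GCRMA gave these values is not given in the sources used here. All arrays share a floor of 2.23. Of 24128 probe sets, 112 controls were not tested. The other 24016 entered the tests, of which 13292 carried 1 gene symbol in the platform annotation, for 9155 genes, and 10724 did not. Of those with 1 symbol, 13263 were found in the RefSeq table by gene ID, under the same symbol.

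The means of the 4 groups were estimated for every probe set with limma 3.58.1 (lmFit and eBayes, no trend) in R 4.3.3, with 8 residual and 0.379 prior degrees of freedom. Adjusted p is Benjamini-Hochberg over the 24016 probe sets, two-sided, called below 0.05. There were 5 contrasts: the change with day within each origin, the change with origin at either day, and their interaction. Errors of differences are SE, those of levels SD, and intervals are at 95%. The number of arrays limits the precision.

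Each gene is represented by its brightest probe set, on average over all 12 arrays. Background is the 99th percentile over 49 control probe sets without a target among the added transcripts. Members, lists, markers and alternatives were chosen with earlier results of these data known. Named were all members, up to 4 called genes per list and contrast, by smallest adjusted p, and the 3 genes most like the member with the widest range, plus BRMS1 and EED. Alternatives covered scaling, filters, covariates, the arrays fitted and single arrays left out. Same-numbered arrays of different groups did not deviate together (3 of 18 pairs correlated above 0.1, median r of -0.06), so no replicate term was used. The labels give no batch, and the pools are their biological replicates. No sequences of the members are shown.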

Additional observations from a re-analysis of the deposited data

How the results depend on the processing

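The count of members called for Day 13 against Day 7 in vivo was 2, and 1 when only the 6 arrays were fitted or the GAPDH 3' minus 5' difference was a covariate. Without single arrays it was 2 to 3. Of all probe sets 1% were called with the 6 arrays and 2.14% with that covariate, against 3.79% as reported. Without single arrays the share was 2.81% to 3.84%. In vitro the count was 3, and 1 when centred on ribosomal protein genes, when only the 6 arrays were fitted, with the replicate block, with the poly-A covariate, or without Day 13 in vitro replicates 1 and 2 together. Without single arrays it was 1 to 3. The 1 call was DNMT1 with the ribosomal centring and with the 6 arrays, and HDAC1 otherwise. With the GAPDH 3' minus 5' covariate the in vitro count was 2, HDAC1 and KAT2B, and 7.49% of all probe sets were called. That share was 7.51% as reported and 8.99% with the ribosomal centring. It was 3.28% with the 6 arrays, 5.05% with the replicate block and 0.82% with the poly-A covariate. Without single arrays it was between 3.8% and 12.1%. The replicate block left KAT2B at an adjusted p of 0.0683 and DNMT1 at 0.0894. The same numbers mark no shared litter or day in the labels, and 0 arrays were closest to every array that shares their number. At Day 7 the count of 0 held in all 16 alternatives. Between the origins at Day 13 it was 4 when arrays were centred on the median of probe sets above background, where 57% of all probe sets were called against 1.2% as reported, so that the 4 say nothing particular about the members. It was 0 to 2 without single arrays, 2 being without Day 13 in vitro replicate 3. That centring moves values at the floor by a constant per array, and HDAC2 and EHMT2, at background, were among the 4. For the change with day between origins it was 0 to 1 without single arrays. The 1 was HDAC1 without Day 13 in vitro replicate 3, where 4.51% of all probe sets were called, against 0.4% as reported. With background at the 95th percentile of the controls, 2.46, 8 genes in place of 7 exceeded it, HDAC2 being added.

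Over 1031 pairs of a gene value and an alternative, 148 lost a call and 7 gained one. No called value changed sign, and 72 values that passed in neither setting did. Calls in the 4 wider lists ran over the alternatives from 2 to 12 in vivo (7 as reported) and from 1 to 16 in vitro (10). Between the origins they ran from 0 to 2 at Day 7 (1) and from 0 to 20 at Day 13 (2). For the change with day between origins the range was 0 to 5 (0). The 12 came with ribosomal centring, where 7.2% of all probe sets were called, against 3.79% as reported. The 20 came with median centring, where 57% of all probe sets were called, against 1.2% as reported. The 5 came without Day 13 in vitro replicate 3, where 4.51% of all probe sets were called, against 0.4% as reported. Centring on ribosomal protein genes shifted the median of probe sets above background to -0.50 in vivo and 0.13 in vitro for Day 13 minus Day 7, to -0.46 between origins at Day 7, 0.19 at Day 13 and 0.67 for the change with day between origins. Median centring shifted it to 0.10, -0.02, -0.11, -0.21 and -0.09 in the same 5 comparisons. With 3 arrays a group and values near the floor, small changes of DNMT3B, HDAC2 and EHMT2 cannot be read from these arrays.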
